A study of Mus musculus with 2 samples.

Results

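Genes for collagen and laminin chains were described across the cell classes of the mouse dorsal telencephalon at embryonic day 14.5 (E14.5), the wall of the forebrain that becomes the cerebral cortex. They were chosen by symbol, as the genes named Col or Lam followed by chain numbers and letters, with at least 10 UMIs in each library over barcodes that passed the filters given below. Of 32285 genes listed, 55 carried such a symbol and 51 were kept, 40 for collagens and 11 for laminins. A UMI, or unique molecular identifier, stands for 1 captured transcript. Just inside the minimum were Col17a1 (10 and 21 UMIs in replicates 2 and 4), Col6a6 (12 and 19) and Col4a3 (13 and 22), and the 4 genes left out were Col10a1 (7 and 10 UMIs), Col5a3 (5 and 1), Col6a5 (0 and 10) and Col6a4 (0 and 4).

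The data were droplet-based single-cell RNA sequencing of 2 libraries of 1 group, WT embryos of the EomesDot line at E14.5, named here replicate 2 and replicate 4 after the last number in their titles. The labels give the tissue as Brain hemispheres, and the dissected part as the dorsal telencephalon, dissociated with papain. The study's methods name C57BL/6J embryos, and how that relates to EomesDot is not stated. The study says in general terms that its embryos were drawn from several litters, but not whether embryos were pooled or which litter each library came from. With 1 group there was no comparison between groups of animals, so the question asked here was which cell classes carried transcripts of which chain. The libraries held 1712 barcodes with 40267872 UMIs and 2589 barcodes with 49422007 UMIs, of which 1197 and 1956 cells remained after filters and removal of doublets (median 30810 and 22948.5 UMIs per cell), and 1 barcode occurred in both libraries. All p-values below measure the spread between these 2 libraries only.

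Collagens are secreted as trimers of alpha chains. Fibrillar collagens build the fibers of connective tissue, collagen VI forms beaded filaments, FACITs attach to fibers, transmembrane collagens stay anchored in the cell surface, and collagen IV forms the sheet of the basement membrane. Laminins are trimers of 1 alpha, 1 beta and 1 gamma chain and are the other sheet of that membrane, held to collagen IV by nidogens and perlecan. In the embryonic cortex the pial basement membrane lies between the meninges and the endfeet of radial glial cells (RGCs), and vessels carry a basement membrane of their own. RGCs divide at the ventricle and give rise to intermediate progenitor cells (IPCs) and excitatory neurons, while inhibitory interneurons migrate in from the medial and caudal ganglionic eminences (MGE and CGE).

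Cells were clustered without the collagen and laminin genes and named from marker lists that hold none of them, so each class is called "-like". Replicates 2 and 4 held 225 and 375 RGC-like, 119 and 171 IPC-like, 569 and 866 excitatory neuron-like, 54 and 107 MGE interneuron-like, 16 and 24 Cajal-Retzius-like and 19 and 34 meningeal fibroblast-like cells, the 6 classes large enough for a test. Mural-like (3 and 9), endothelial-like (9 and 18) and hem or choroid plexus-like cells (18 and 9) fell under 10 cells in a library, so their values are given without a test. Summed in counts per 1e+06 UMIs (CPM), 12 meningeal markers were at 3949 and 4527 in the meningeal fibroblast-like cells and at most 929.9 in any other class, 11 endothelial markers at 8384 and 8850 in the endothelial-like cells and at most 733.4 elsewhere, and 10 mural markers at 9323 and 7215 in the mural-like cells and at most 1651 elsewhere. The mural-like cells had UMIs of 8 of 12 meningeal markers (929.9 and 855.7 CPM), with Dcn, Aldh1a2, Pdgfra and Ptgds at 0. In turn, the meningeal fibroblast-like cells had UMIs of 9 of 10 mural markers (745.2 and 1651 CPM, Higd1b at 0) and all 11 endothelial ones (301.6 and 550.5 CPM). No microglia-like cluster was found, and the summed level of 10 microglia markers was highest, of the classes tested, in RGC-like cells (155.5 and 181.2 CPM). Hemoglobin and other red blood cell genes differed between libraries, at 79.4 and 2730 CPM in RGC-like and 91.9 and 45563 CPM in endothelial-like cells, and their part in the results below was not tested.

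Collagen and laminin transcripts were most concentrated in the meningeal fibroblast-like cells, the cells of the covering that lies on the pial surface. Their summed level there was 10032 and 14109 CPM (12071 ± 2883, SD, n = 2), so that 1.59% and 1.74% of the cells held 40.7% and 45.4% of all collagen and laminin UMIs of the retained cells. Mural-like cells followed with 7198 and 6099 CPM, then endothelial-like cells with 3499 and 3896 CPM, and hem or choroid plexus-like cells with 1454 and 2013 CPM. In each of these steps the libraries of neighboring classes did not overlap. Of the 5 neural classes tested, the summed level was highest in RGC-like cells, at 457.8 and 443.8 CPM, against 304.0 and 276.2 CPM in Cajal-Retzius-like, 196.7 and 209.0 CPM in IPC-like, 143.6 and 144.8 CPM in excitatory neuron-like and 198.3 and 146.2 CPM in MGE interneuron-like cells. The MGE interneuron-like values overlapped those of the IPC-like cells, and in replicate 4 lay close to those of the excitatory neuron-like cells. Striatal projection neuron-like cells, not tested with 1 and 69 cells, were at 525.4 and 379.2 CPM. Because neurons were many, excitatory neuron-like cells (47.5% and 44.3% of cells) still held 13.8% and 11.1% of collagen and laminin UMIs. Laminins made up a larger part of the sum in excitatory neuron-like than in RGC-like cells. In excitatory neuron-like cells they were at 61.2 and 64.2 CPM beside 82.3 and 80.6 CPM of collagens, and in RGC-like cells at 111.5 and 113.2 CPM beside 346.3 and 330.7 CPM. These levels are UMIs of transcript 3′ ends and are not divided by gene length, and reads in introns may be counted, so that levels are compared between classes and not between genes.

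**Figure D1:**
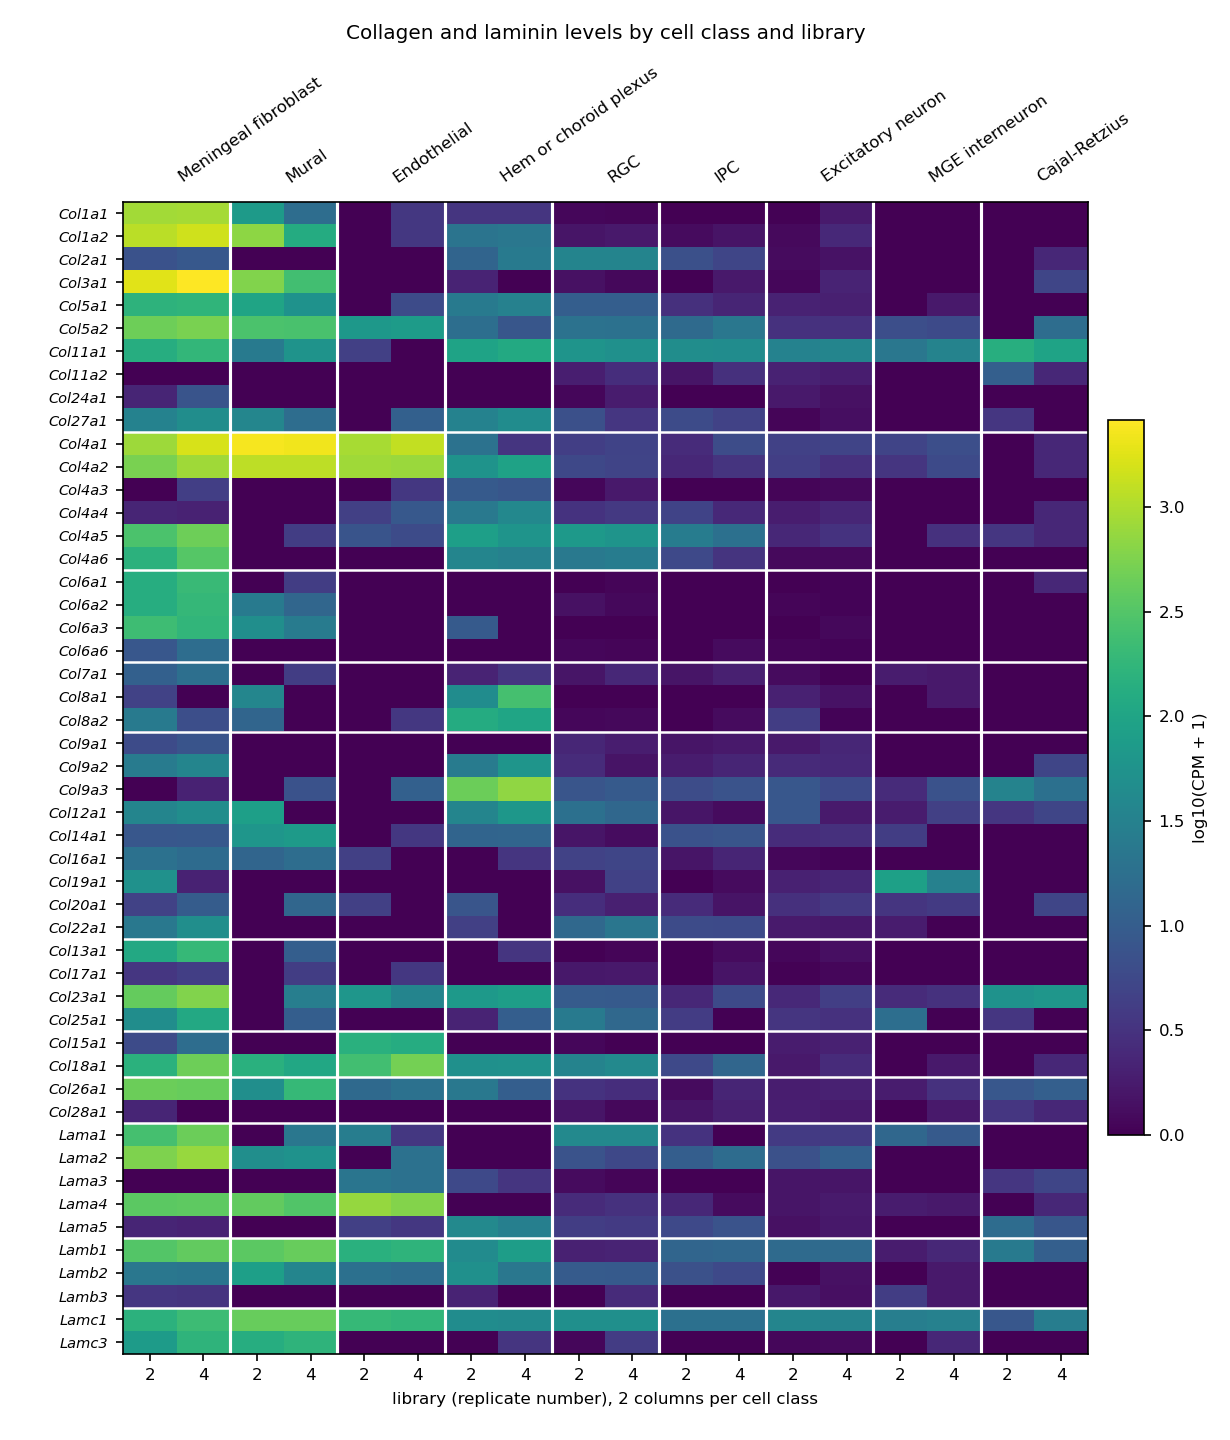
Levels of the collagen and laminin genes reported here (log10 of CPM + 1, color scale) in 9 cell classes, with 2 columns per class for replicates 2 and 4 and white lines between gene groups by role. The meningeal fibroblast-like columns hold the brightest fibrillar collagens, the mural-like and endothelial-like columns are bright for Col4a1 and Col4a2, and RGC-like columns stand out from the neuronal ones for Col2a1, Col4a5, Col4a6, Col18a1 and Lama1.

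Fibrillar collagens I and III and collagen VI marked the meningeal fibroblast-like cells. Col3a1 (ENSMUSG00000026043; chr1:45311538-45349706 in mm10, which is GRCm38), the chain of collagen III, was at 1801 and 2602 CPM there, against 0.408 and 0.201 CPM in RGC-like cells (5 UMIs in both). The collagen I chains Col1a1 (ENSMUSG00000001506) and Col1a2 (ENSMUSG00000029661; chr6:4505618-4541543) were at 864.6 and 895.3 CPM and at 1161 and 1481 CPM. Mural-like cells were the only other class with over 100 CPM of such a chain in both libraries, with Col1a2 at 688.4 and 125.4 CPM and Col3a1 at 579.7 and 238.2 CPM. In endothelial-like cells Col3a1 had no UMI and Col1a1 and Col1a2 had 1 each in replicate 4 (2.56 CPM). In excitatory neuron-like cells of replicate 4, 26 of 31 Col1a2 UMIs and 12 of 16 Col1a1 UMIs came from 1 cell each. The 200 bases before the outermost annotated start are shown for Col3a1 and Col1a2, since these 2 genes had among the widest ranges of level over the classes, from RefSeq on GRCm38.p6 and read in the direction of the gene. Capitals mark the letters TATAAA as a TATA box, CCAAT as the box of that name and GGGCGG as a GC box, each searched on both strands.
Col3a1, chr1:45311338-45311537, plus strand: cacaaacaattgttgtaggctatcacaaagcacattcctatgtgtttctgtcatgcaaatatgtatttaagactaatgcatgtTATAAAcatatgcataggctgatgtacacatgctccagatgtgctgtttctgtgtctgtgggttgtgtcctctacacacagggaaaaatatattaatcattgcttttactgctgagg
Col1a2, chr6:4505418-4505617, plus strand: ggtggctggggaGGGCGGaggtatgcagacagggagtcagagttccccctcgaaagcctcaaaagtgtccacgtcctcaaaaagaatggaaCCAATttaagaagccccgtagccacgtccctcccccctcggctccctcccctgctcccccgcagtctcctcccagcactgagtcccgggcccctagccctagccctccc
The Col3a1 stretch held the TATA box letters at position -117 from the start, and the Col1a2 stretch held those of the CCAAT box at -109 and of the GC box at -188. Over 32851 such windows of 200 bases, the TATA box letters stood in 9.96%, the CCAAT box in 29.35% and the GC box in 31.05%. Of the 40 windows found for 36 of the 51 genes, 3 held the first, 10 the second and 21 the last.

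To ask which chains the pial covering carried above the level of the glia whose endfeet reach it, meningeal fibroblast-like cells were compared with RGC-like cells. UMIs were summed per library and class and tested with edgeR's quasi-likelihood test, a gene being called at a Benjamini-Hochberg adjusted p under 0.05 over 13966 genes. Of the 51 genes 41 passed the filter on low counts. Of these, 36 were called higher, where 21.8% of all genes tested were, and 2 lower, where 18.2% were. The median log2 fold change of the 41 was 4.19, and that of all genes tested 0.02. Of the 41 genes, 17 passed the filter only through the meningeal sums and could only come out higher, so that these counts and this median are a description only. The 17 genes were Col1a1, Col1a2, Col3a1, Col6a1, Col6a2, Col6a3, Col6a6, Col7a1, Col8a2, Col9a1, Col9a2, Col13a1, Col15a1, Col16a1, Col20a1, Lama4 and Lamc3, and their levels are given for this comparison with no test. Of the 24 others 19 were called higher. Among those untested for low counts in this and the later comparisons were Col11a2, Col24a1, Col4a3, Col4a4, Col8a1, Col17a1, Col28a1, Lama3 and Lamb3.

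The fibrillar chain Col3a1 had 3773 UMIs in the meningeal cells against 5 in RGC-like cells. Col1a1 rested on 1493 against 2 UMIs, a ratio of 7613 with a counting interval (95%, exact) of 2104 to 62918. Such intervals cover counting error only. Of the collagen VI chains, Col6a3 was at 227.5 and 175.7 CPM against 0 UMIs in RGC-like cells, at least 1152-fold higher when 3 UMIs over both libraries are taken as the floor. Col6a1 (132.0 and 202.4 CPM) and Col6a2 (134.5 and 186.8 CPM) had 1 and 5 UMIs in RGC-like cells. Collagen V chains had UMIs on both sides. Col5a2, which sets the width of collagen I fibers together with Col5a1, was at 462.5 and 530.5 CPM against 18.4 and 17.5 CPM (log2 fold change 4.83 ± 0.32 SE, adjusted p by edgeR = 1.95e-06). Col2a1 (ENSMUSG00000022483; chr15:97975602-98004724), the main collagen of cartilage, went the other way, at 6.28 and 7.79 CPM in meningeal fibroblast-like and 34.1 and 33.5 CPM in RGC-like cells (a log2 fold change of -2.21 ± 0.35 SE, adjusted p by edgeR = 0.000919). The other lower gene was Col9a3, a FACIT chain, with 1 meningeal UMI against 134, a ratio of 13.1 (2.32 to 523), and it lost the call at Leiden resolution 2 and with classes made from 1 part of the UMIs and tests on the other (adjusted p by edgeR = 0.0614 and 0.176). Of the transmembrane collagens, Col23a1 was higher, at 407.2 and 577.2 CPM against 8.71 and 8.16 CPM, and Col13a1 had 261 against 1 UMIs.

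Col26a1, a collagen of the other-collagen group, was at 437.3 and 412.6 CPM in meningeal fibroblast-like against 2.18 and 1.81 CPM in RGC-like cells, a log2 fold change of 7.77 ± 0.25 SE. Of the laminin genes, Lama2 and Lamb1 were among those higher, and Lama5 (log2 fold change -1.27) and Lamb2 (1.32, adjusted p by edgeR = 0.0507) were not called. Col19a1 was called higher with 52.8 and 1.11 CPM, but 41 of its 42 UMIs in replicate 2 came from 1 cell, and without that library the log2 fold change was -1.13. Nor was it called with at most 5% mitochondrial UMIs (-2.30) or with only the compared classes in the model (3.63, adjusted p by edgeR = 0.106). Col12a1, Lama5 and Lamb2 were the 3 genes tested that were not called. Meningeal markers summed to 25.7 and 16.6 CPM in RGC-like cells against 3949 and 4527 CPM in the meningeal cells, and their part in the lowest RGC-like values was not tested.

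Collagen IV fell into 2 gene pairs with different classes at the top. Col4a1 (ENSMUSG00000031502; chr8:11198423-11312889) and Col4a2 (ENSMUSG00000031503; chr8:11312805-11449287), the chains of the collagen IV found in all basement membranes, were highest in mural-like cells. Col4a1 was at 2331 and 2203 CPM in mural-like, 942.9 and 1246 CPM in endothelial-like and 824.4 and 1625 CPM in meningeal fibroblast-like cells. Col4a2 was at 1171 and 1197, 840.8 and 805.7, and 531.6 and 855.3 CPM. Mural-like cells lay above the other classes in both libraries for both genes, while endothelial-like and meningeal fibroblast-like values overlapped. In the meningeal cells, mural markers were also higher in replicate 4 than in replicate 2 (1651 against 745.2 CPM), and their part in the Col4a1, Col4a2 and laminin levels there was not tested. In RGC-like cells Col4a1 was at 3.26 and 3.93 CPM and Col4a2 at 4.49 and 4.03 CPM, within the range of excitatory neuron-like and MGE interneuron-like cells (2.09 to 5.52 CPM over both genes).

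Col4a5 (ENSMUSG00000031274; chrX:141475370-141689236) and Col4a6 (ENSMUSG00000031273; chrX:141165403-141474095) assemble with each other in some basement membranes. They were highest in meningeal fibroblast-like cells, lower in RGC-like cells, and had few or no UMIs in endothelial-like and mural-like cells. Col4a5 was at 284.0 and 456.0 CPM in meningeal fibroblast-like, 83.9 and 56.8 CPM in hem or choroid plexus-like and 67.1 and 56.9 CPM in RGC-like cells, against 6.81 and 5.12 CPM in endothelial-like and 0 and 3.13 CPM in mural-like cells. Col4a6 was at 157.1 and 323.6 CPM, 35 and 30.8 CPM and 22.7 and 26.0 CPM in the same first 3 classes, with no UMI in endothelial-like or mural-like cells. RGC-like and hem or choroid plexus-like values overlapped for Col4a5. Both chains fell off along the lineage, with Col4a5 at 26.2 and 17.5 CPM in IPC-like and 1.38 and 2.19 CPM in excitatory neuron-like cells. Thinned to 5000 UMIs per cell, 22.4% and 20.4% of RGC-like cells had a Col4a5 UMI, against 9.48% and 4.94% of IPC-like and 0.738% and 0.971% of excitatory neuron-like cells. In endothelial-like cells, none of the 9 and 12 cells deep enough had one. Unthinned, the RGC-like shares were 54.2% and 51.2%. Thinning left out 15 and 22 RGC-like, 3 and 9 IPC-like and 27 and 42 excitatory neuron-like cells that were shallower.

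The third pair, Col4a3 and Col4a4, chains of kidney glomerular basement membrane, was low throughout. It was highest in hem or choroid plexus-like cells, with Col4a3 at 8.16 and 7.10 CPM and Col4a4 at 23.3 and 37.9 CPM. In RGC-like cells Col4a3 was at 0.136 and 0.705 CPM and Col4a4 at 2.18 and 2.72 CPM.

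The chains of a pair did not move in a fixed ratio. Of the Col4a1 and Col4a2 UMIs together, Col4a1 made up 60.8% (95% Clopper-Pearson interval 57.8% to 63.7%) and 65.5% (63.5% to 67.5%) in meningeal fibroblast-like, 66.6% and 64.8% in mural-like and 52.9% and 60.7% in endothelial-like cells. In hem or choroid plexus-like cells the share was 25% (15% to 37.4%) and 2.5% (0.0633% to 13.2%), from 64 and 40 UMIs, below every value of the 3 other classes. Of the Col4a5 and Col4a6 UMIs, Col4a5 made up 74.7% and 68.7% in RGC-like and 64.4% and 58.5% in meningeal fibroblast-like cells. It made up 84.8% (76.8% to 90.9%) and 88.8% (79.7% to 94.7%) in IPC-like cells, above the RGC-like values in both libraries.

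Both pairs are transcribed away from each other from neighboring starts. The spans of Col4a1, on the minus strand, and Col4a2, on the plus strand, overlap by 85 bases, so reads there depend on strand. The Col4a1 start used for RefSeq's promoter window lies inside that overlap, so that the stretch from it to the Col4a2 start, both included, is 22 bases long. The outermost starts of Col4a6, on the minus strand, and Col4a5, on the plus strand, lie 1275 bases apart. The starts are shown because the chains of each pair had their highest levels in the same classes. For Col4a5 and Col4a6 the 200 bases before the outermost start are given, in the direction of each gene, with motifs in capitals as above.
Col4a1 and Col4a2, chr8:11312805-11312826, plus strand: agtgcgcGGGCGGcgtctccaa
Col4a5, chrX:141475170-141475369, plus strand: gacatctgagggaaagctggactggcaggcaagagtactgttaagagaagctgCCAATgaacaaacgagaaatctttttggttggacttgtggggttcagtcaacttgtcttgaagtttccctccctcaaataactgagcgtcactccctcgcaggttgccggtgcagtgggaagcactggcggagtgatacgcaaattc
Col4a6, chrX:141474096-141474295, minus strand: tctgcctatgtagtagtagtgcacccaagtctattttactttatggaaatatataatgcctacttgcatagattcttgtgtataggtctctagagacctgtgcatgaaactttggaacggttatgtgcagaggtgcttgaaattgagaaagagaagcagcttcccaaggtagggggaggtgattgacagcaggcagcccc
The Col4a1 and Col4a2 stretch held 1 GC box, the Col4a5 stretch held a CCAAT box at -147, and the Col4a6 stretch held none of the 3 motifs.

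**Figure D2:**
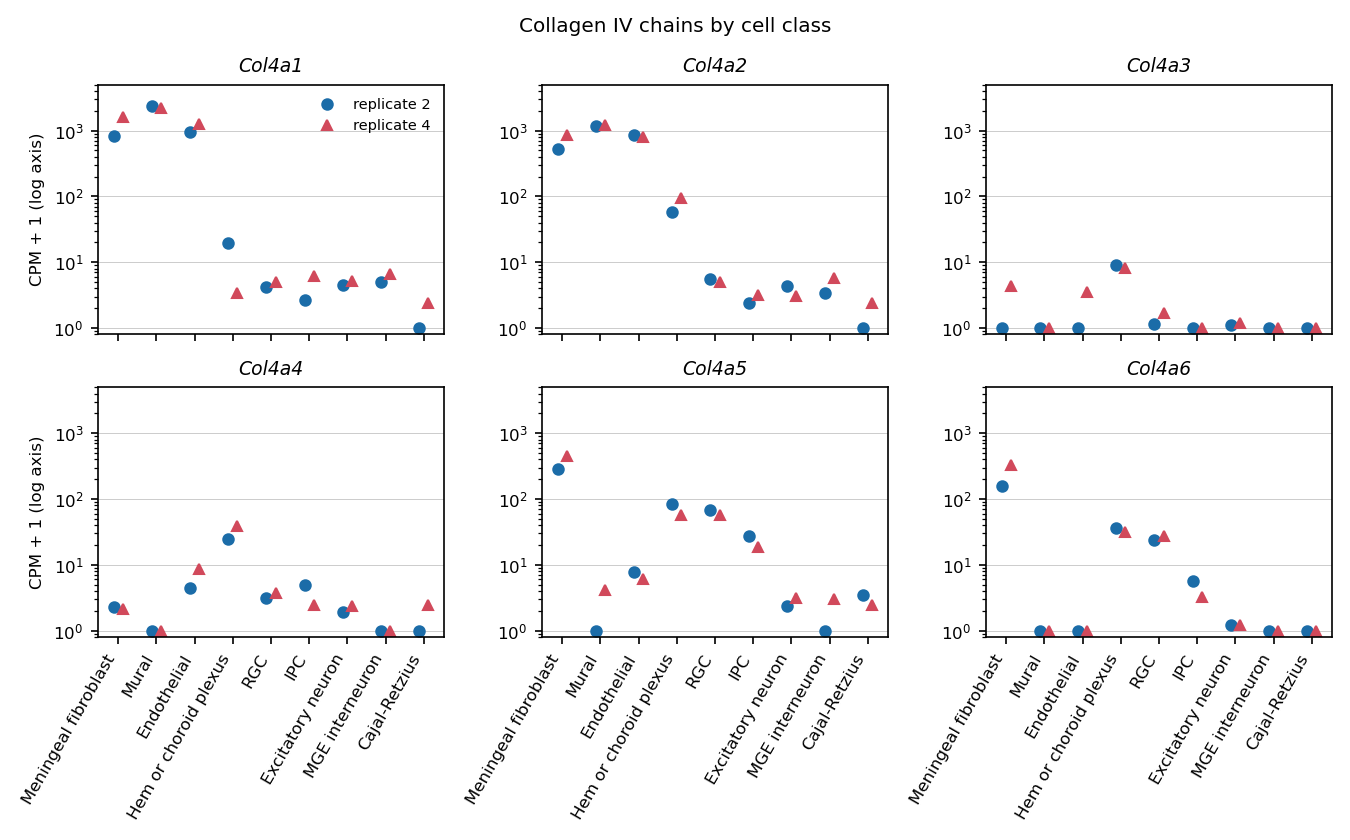
Levels of the 6 collagen IV genes in 9 cell classes (CPM + 1, log axis), with a circle for replicate 2 and a triangle for replicate 4. Col4a1 and Col4a2 reach 1171 to 2331 CPM in mural-like cells and at most 5.52 CPM in the 5 neural classes tested, with hem or choroid plexus-like cells between (Col4a2 at 55.9 and 92.3 CPM), while Col4a5 lies at 56.9 to 67.1 CPM in RGC-like cells and at most 6.81 CPM in endothelial-like and mural-like cells.

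Other chains of vessels and choroid plexus differed from class to class. Col15a1, a multiplexin of vessel basement membranes, was at 146.4 and 130.5 CPM in endothelial-like cells, had no UMI in mural-like cells and was at 5.03 and 15.6 CPM in meningeal fibroblast-like cells, though 30 of 43 endothelial UMIs of replicate 2 came from 1 cell. Col18a1 (ENSMUSG00000001435), the source of endostatin, was at 238.3 and 503.9 CPM in endothelial-like, 150.8 and 457.1 CPM in meningeal fibroblast-like and 144.9 and 109.7 CPM in mural-like cells, and the libraries of the first 2 overlapped. Lama4, the alpha chain of vascular laminins, was at 755.7 and 611.3 CPM in endothelial-like, above 398.5 and 304.0 CPM in mural-like and 355.6 and 363.7 CPM in meningeal fibroblast-like cells. Lama3, low in every class, was highest in endothelial-like cells too (20.4 and 17.9 CPM).

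Hem or choroid plexus-like cells had a set of their own. Col9a3 was at 438.2 and 707.9 CPM there, from 15 of 18 and 9 of 9 cells, and at most 32.4 CPM in any other of the 9 classes shown. Col8a2, a network collagen known from the corneal endothelium, was at 123.5 and 99.4 CPM. Its partner Col8a1 was at 45.5 and 258.1 CPM, with 21 of 39 and 55 of 109 UMIs from 1 cell. Lama5, the alpha chain of the laminins of mature epithelia, was also highest in this class, at 39.6 and 28.4 CPM, followed by Cajal-Retzius-like cells at 15 and 7.08 CPM. Lama1, Lama2 and Lama4 had no UMI in these cells, which limits each to 3 of 858114 and 422348 UMIs. Endothelial markers summed to 444.0 and 584.8 CPM in this class with Cldn5, Pecam1, Cdh5 and Emcn at 0, and meningeal markers to 726.0 and 800.3 CPM with Lum, Foxc2, Foxd1, Twist1 and Aldh1a2 at 0. Their part in these levels was not tested.

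To ask which chains distinguish the glial progenitors from the neurons they produce, excitatory neuron-like cells were set against RGC-like cells. The same 41 genes were tested. Of these 16 were called higher in RGC-like cells, where 25.1% of all genes tested were, and 3 lower, where 29.3% were. Their median log2 fold change was 0.61, that of all genes -0.07. By role, 4 of 8 fibrillar collagens tested were higher, 2 of 4 collagen IV chains, 2 of 3 transmembrane collagens, 2 of 9 FACITs with 1 lower, and 4 of 8 laminins with 1 lower, while none of the 4 collagen VI genes tested, with 0 to 5 UMIs in either class, was called.

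The largest differences among the called genes were those of Col4a6 and Col2a1. Col4a6, at 22.7 and 26.0 CPM against 0.212 and 0.233 CPM, had a log2 fold change of 6.41 ± 0.51 (SE, adjusted p by edgeR = 9.54e-06). Col2a1, at 34.1 and 33.5 CPM against 0.265 and 0.465 CPM, had 6.19 ± 0.31 (SE, adjusted p by edgeR = 3.81e-07). Thinned to 5000 UMIs, 11.9% and 15% of RGC-like cells had a Col2a1 UMI against 0% and 0.485% of excitatory neuron-like cells, and unthinned the RGC-like shares were 53.3% and 48.0%. Col4a5 followed with 4.85 ± 0.35 (SE). Col18a1 was at 33.1 and 39.6 CPM against 0.689 and 1.63 CPM (4.68 ± 0.58 SE).

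A pair of FACITs rose in RGC-like cells, Col16a1 (3.67 and 4.23 against 0.159 and 0.0930 CPM, log2 fold change 4.54) and Col22a1, a collagen of tissue junctions (13.3 and 21.0 against 0.742 and 0.651 CPM, 4.35). Of the fibrillar collagens, Col27a1 (3.85), Col5a1 (2.92) and Col5a2 (2.85) were higher besides Col2a1. Col11a1, a minor chain of cartilage fibers, was broad, at 58.5 and 51.1 against 32.2 and 35.3 CPM, and was not called (0.45 ± 0.19 SE, adjusted p by edgeR = 0.0693). The transmembrane collagens Col25a1 (2.85) and Col23a1 (1.53) and the anchoring-fibril chain Col7a1 (2.36) were higher as well, Col7a1 on 18 against 6 UMIs. Lower were Col14a1, a FACIT, at 0.544 and 0.302 against 1.69 and 1.95 CPM (-2.34 ± 0.66 SE), and Col15a1, with 1 UMI against 38, a ratio of 16.3 (2.75 to 659). With doublets kept, the log2 fold change of Col7a1 was 1.37 (adjusted p by edgeR = 0.140), and Col25a1 lost its call with DESeq2 (adjusted p = 0.0983). Col14a1 lost its call at both other Leiden resolutions, 0.5 (-0.19, adjusted p by edgeR = 0.836) and 2 (-0.50, adjusted p by edgeR = 0.581).

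Vascular or meningeal material in the RGC-like sum was measured beside these values. In RGC-like and excitatory neuron-like cells, 11 endothelial markers summed to 17.4 and 20.2 and to 7.95 and 10.7 CPM, and 10 mural markers to 81.6 and 70.7 and to 2.17 and 5.35 CPM. The 12 meningeal markers summed to 25.7 and 16.6 and to 2.49 and 7.30 CPM. RGC-like cells had UMIs of 10 of 11 endothelial markers (Cdh5 at 0) and of all 10 mural markers. A setting chosen after seeing the data left out cells with 3 or more UMIs summed over 12 vascular or meningeal marker genes. These were 25 RGC-like and 15 excitatory neuron-like cells. Cells with fewer such UMIs, or with UMIs of other markers of the lists, stayed in. In this setting 18 genes were called higher and 3 lower, where 7558 of all 13843 genes tested were called in either direction. The 19 genes called with all cells stayed called.

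**Figure D3:**
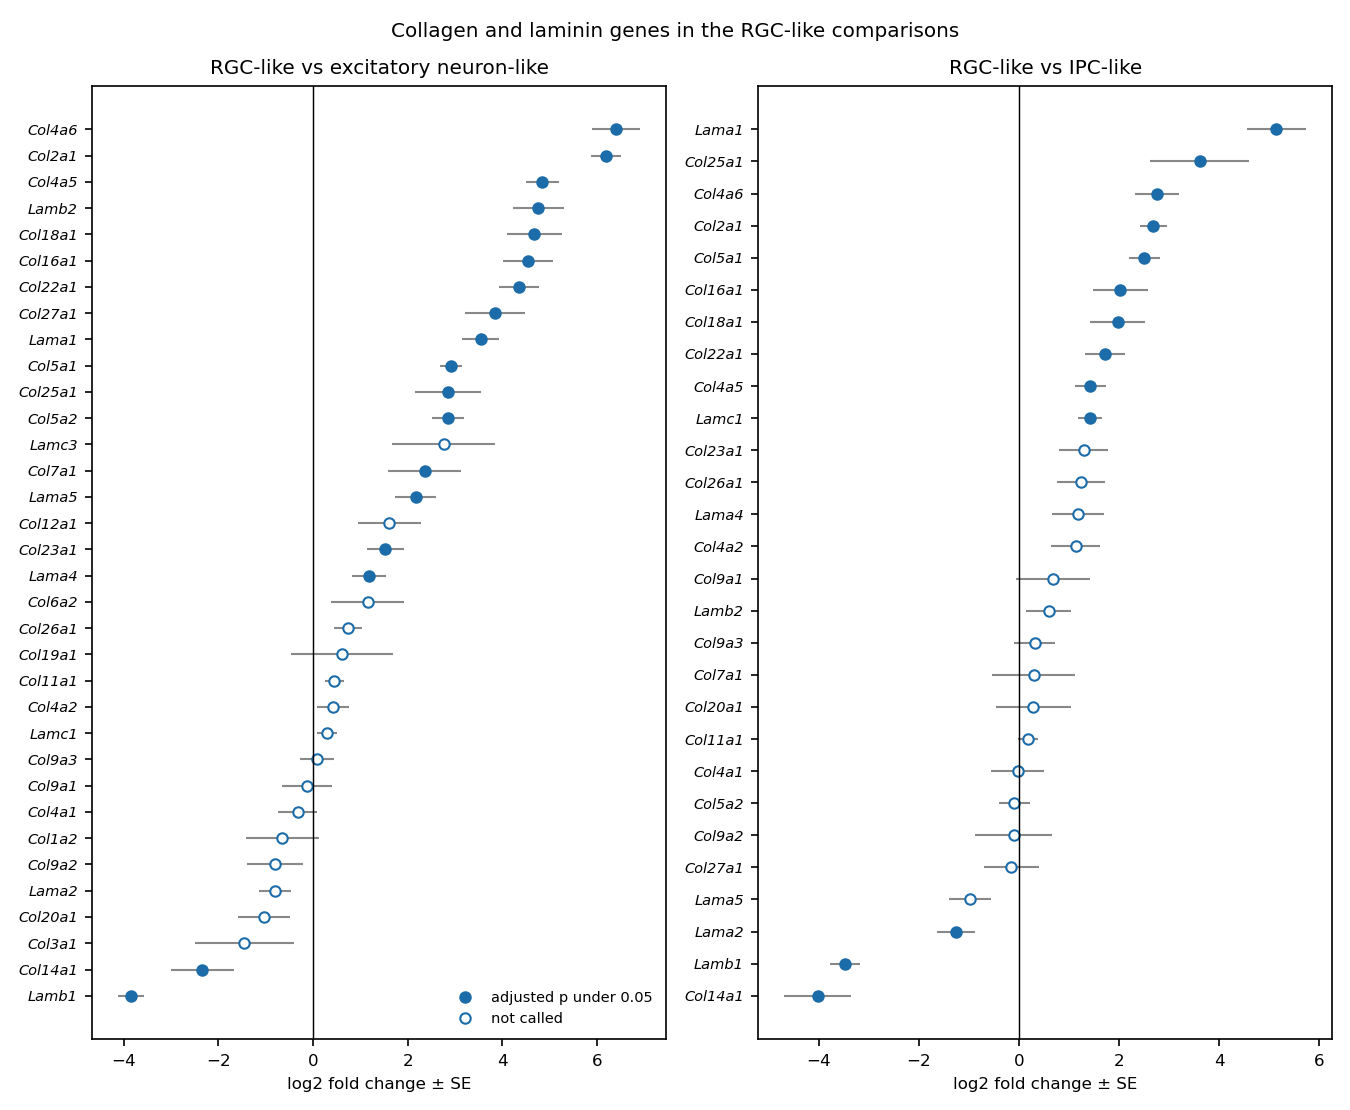
Log2 fold changes (± SE) of collagen and laminin genes with over 3 UMIs in both classes, for RGC-like against excitatory neuron-like cells (left) and RGC-like against IPC-like cells (right), filled where the adjusted p by edgeR was under 0.05. Lamb1 (-3.85 and -3.46) lies far to the left on both sides, and Lama1 (3.55 and 5.14) far to the right.

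The laminin beta chains changed places along the lineage. Lamb2 (ENSMUSG00000052911; chr9:108479847-108490530), the beta chain of vascular and neuromuscular laminins, was at 8.71 and 8.36 CPM in RGC-like cells, then 6.08 and 4.68 CPM in IPC-like and 0.0530 and 0.419 CPM in excitatory neuron-like cells. Lamb1 (ENSMUSG00000002900; chr12:31265146-31329644), the beta chain of the first embryonic laminin, was at 1.09 and 1.21, 11.9 and 12.8, and 14.2 and 14.4 CPM. In RGC-like against excitatory neuron-like cells Lamb2 had a log2 fold change of 4.77 ± 0.54 (SE, adjusted p by edgeR = 5.13e-05) and Lamb1 of -3.85 ± 0.27 (SE, adjusted p by edgeR = 9.33e-07). Of the UMIs of both, Lamb1 made up 11.1% (4.92% to 20.7%) and 12.6% (6.70% to 21.0%) in RGC-like, 66.2% (53.4% to 77.4%) and 73.2% (61.4% to 83.1%) in IPC-like and 99.6% and 97.2% in excitatory neuron-like cells. The 3 classes did not overlap in this share. In meningeal fibroblast-like cells it was 93.7% and 95.2%.

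Lamb1 differed among neuronal clusters. It was highest in an unnamed cluster (130 cells), whose leading genes were those of IPCs and of neurons (Neurod1, Unc5d, Eomes), at 27.9 and 31.8 CPM. In the excitatory neuron-like clusters it was at 18 to 22.5 CPM in 3 of them (led by Tafa1, Lrfn5 and Adamtsl3) and at 3.87 to 9.35 CPM in 3 others (led by Unc5d in a pair of them and by Rgs6). A cluster of 52 shallow cells with hemoglobin genes among its leading genes, also in this class, had 11.7 and 0 CPM. Thinned to 5000 UMIs, 5.72% and 7.04% of excitatory neuron-like cells had a Lamb1 UMI against 1.43% and 0% of RGC-like cells, and unthinned the shares were 26.5% and 21.5% against 3.11% and 1.87%. The most Lamb1 UMIs in 1 excitatory neuron-like cell were 7 in each library.

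Of the alpha chains, Lama1 differed between RGC-like and excitatory neuron-like cells, while Lama2 overlapped. Lama1 (ENSMUSG00000032796; chr17:67697127-67822645), the alpha chain of the first embryonic laminin, was at 39.7 and 39.7 CPM in RGC-like cells, 2.21 and 0 CPM in IPC-like and 2.81 and 2.88 CPM in excitatory neuron-like cells (log2 fold change against the latter 3.55 ± 0.39 SE, adjusted p by edgeR = 4.36e-05). It was at 251.3 and 441.5 CPM in meningeal fibroblast-like cells. Lama2 (ENSMUSG00000019899), the muscle laminin alpha chain, was at 6.53 and 4.53 CPM in RGC-like and 5.93 and 10.1 CPM in excitatory neuron-like cells, with overlap. It was uneven within the neurons, at 19.5 and 34.65 CPM and at 32.0 and 27.9 CPM in the 2 clusters led by Unc5d and at most 4.48 CPM in the 5 others. In replicates 2 and 4, 33 and 35 excitatory neuron-like cells held all 112 and 217 Lama2 UMIs, up to 24 and 76 in 1 cell. Lama5 (3.13 and 2.82 against 0.424 and 0.651 CPM) and Lama4 (1.63 and 2.11 against 0.583 and 0.791 CPM) were higher in RGC-like cells, with log2 fold changes of 2.17 and 1.19. Lama4 lost its call in 3 settings, with doublets kept, where the direction turned (-1.22, adjusted p by edgeR = 0.0819), at Leiden resolution 2 (0.74, adjusted p by edgeR = 0.128) and with classes made from 1 part of the UMIs and tests on the other (0.97, adjusted p by edgeR = 0.297).

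Of the gamma chains, Lamc1 (ENSMUSG00000026478), part of most laminins, had UMIs in every class, though only 1 in CGE interneuron-like cells of replicate 2. In droplet data free RNA gives UMIs in cells that do not express a gene. Ttr, the transthyretin gene of the choroid plexus, had a UMI in 42.7% and 21.3% of RGC-like and 40.6% and 20.2% of excitatory neuron-like cells, at 18.6 and 10.7 CPM and at 17.3 and 28.6 CPM. In excitatory neuron-like cells of replicate 4, 407 of the 615 Ttr UMIs came from 1 cell, and without it the level was 9.68 CPM. UMIs in a class are therefore not read here as expression by its cells. The part of free RNA in the levels of the collagen and laminin genes was not tested. Lamc1 was at 49.2 and 48.9 CPM in RGC-like, 34.9 and 32.3 CPM in excitatory neuron-like, 28.1 and 30.3 CPM in MGE interneuron-like and 17.1 and 17.5 CPM in IPC-like cells, with libraries of these 4 classes apart from each other. RGC-like against excitatory neuron-like cells gave 0.30 ± 0.21 (SE, adjusted p by edgeR = 0.257). Thinned to 5000 UMIs, 19.5% and 18.1% of RGC-like, 14% and 15% of excitatory neuron-like and 14.7% and 5.56% of IPC-like cells had a Lamc1 UMI, and unthinned the shares were 53.3% and 51.5%, 46.1% and 37.8%, and 31.1% and 24.0%. Lamc3 was carried by mural-like (132.8 and 163.0 CPM) and meningeal fibroblast-like cells (72.9 and 167.9 CPM), and 26 of its 30 UMIs in RGC-like cells of replicate 4 came from 1 cell. Lamb3, a beta chain of epithelial laminin, was at most 3.21 CPM in the 9 classes shown.

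**Figure D4:**
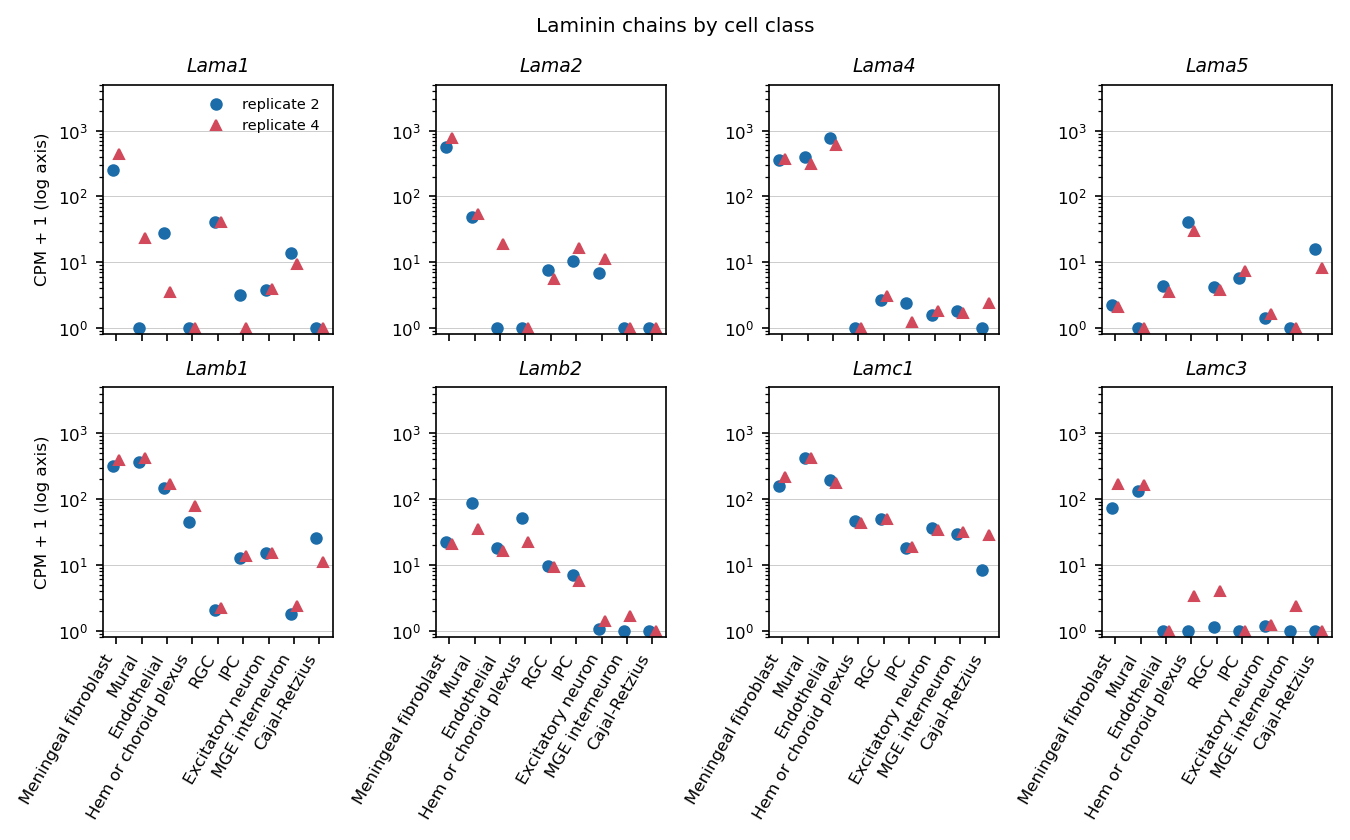
Levels of 8 laminin genes in 9 cell classes (CPM + 1, log axis), with a circle for replicate 2 and a triangle for replicate 4. Lamb1 and Lamb2 go in opposite directions from RGC-like (1.09 and 1.21 against 8.71 and 8.36 CPM) to excitatory neuron-like cells (14.2 and 14.4 against 0.0530 and 0.419 CPM), Lama4 is highest in endothelial-like cells and Lamc1 has UMIs in each class shown.

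Against IPC-like cells, the next step of the lineage, 11 of the 41 genes tested were called higher in RGC-like cells, where 14.5% of all genes tested were, and 3 lower, where 13.0% were. The median log2 fold change was 1.14, or 0.69 with genes of 3 UMIs or fewer in a class set to their bound, and that of all genes was 0.03. Lama1 differed most among the called genes with over 3 UMIs in both classes (log2 fold change 5.14 ± 0.59 SE, adjusted p by edgeR = 0.000252). Col12a1, a FACIT of dense connective tissue, rested on 253 against 3 UMIs, a ratio of 37.5 (12.7 to 183). Also higher were Col25a1 (3.61), Col4a6 (2.76), Col2a1 (2.69), Col5a1 (2.51), Col16a1 (2.03), Col18a1 (1.98), Col22a1 (1.73), Col4a5 (1.43) and Lamc1 (1.43). Col16a1 lost this call with doublets kept (1.23, adjusted p by edgeR = 0.116) and Col25a1 with DESeq2 (adjusted p = 0.0747).

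The genes lower in RGC-like cells were Col14a1, Lamb1 and Lama2. Col14a1 was at 0.544 and 0.302 against 6.35 and 6.89 CPM (-4.02 ± 0.66 SE, adjusted p by edgeR = 0.0019). Among the IPC-like clusters, Col14a1 was at 7.83 and 10.5 CPM in the larger cluster. In the dividing one led by Top2a and Mki67 it was at 2.13 and 2.24 CPM (only 2 and 4 UMIs). Lamb1 had -3.46 ± 0.30 (SE) and Lama2 -1.26 ± 0.38 (SE, adjusted p by edgeR = 0.0395), the latter with 35 of 62 IPC-like UMIs of replicate 4 in 1 cell. Lamb2 did not differ beyond the spread of the libraries (0.59 ± 0.45 SE, adjusted p by edgeR = 0.371). Its level too was uneven among IPC-like cells, at 7.83 and 7.47 CPM in the larger and 1.07 and 1.12 CPM (only 1 and 2 UMIs) in the dividing cluster. Col5a2, higher in RGC-like than in excitatory neuron-like cells, was at 18.4 and 17.5 CPM here against 14.1 and 21.9 CPM (-0.09 ± 0.31 SE). RGC-like cells entered both comparisons. With at most 5% mitochondrial UMIs, 1 gene was called lower, and Lama2 lost its call (-1.08, adjusted p by edgeR = 0.0768).

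**Figure D5:**
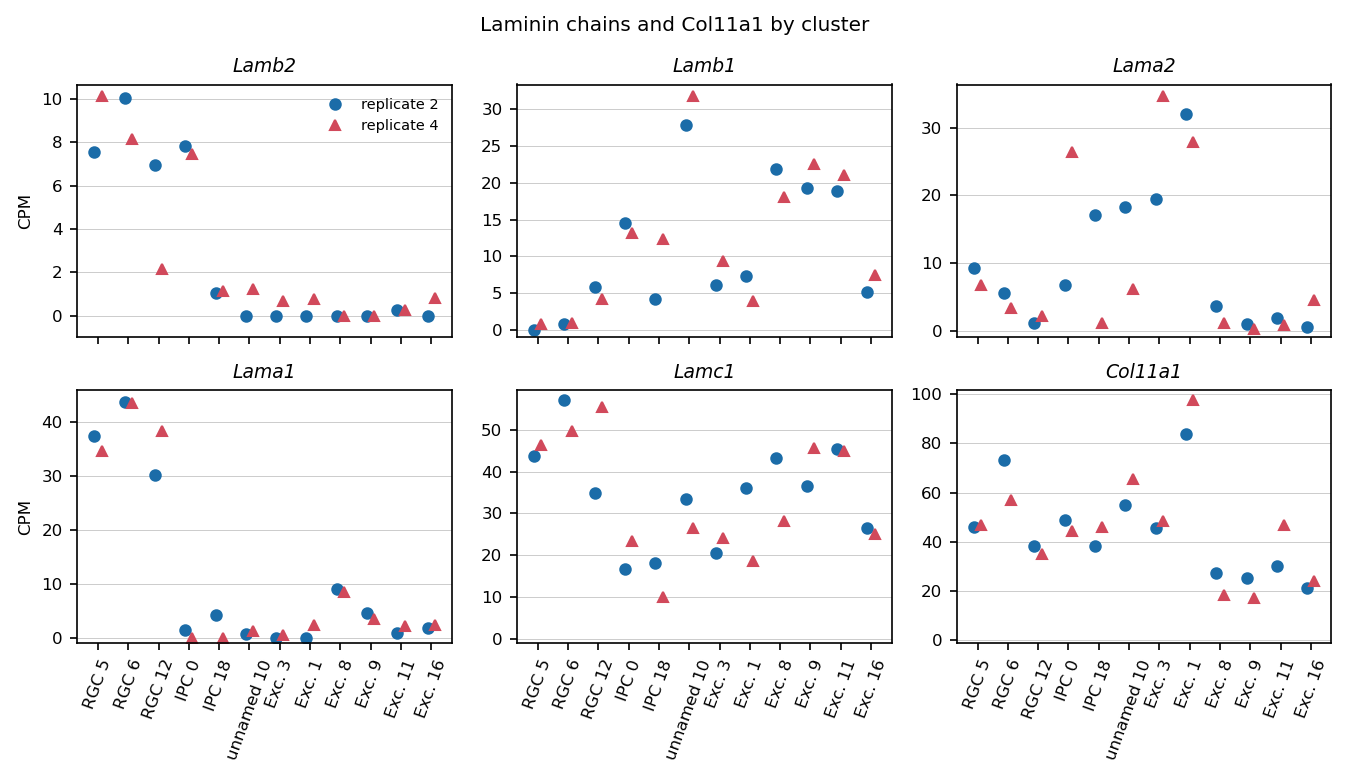
Levels (CPM, linear axes of different range) of 5 laminin chains and Col11a1 by cluster, from RGC-like through IPC-like and 1 unnamed cluster to excitatory neuron-like ones, with a circle for replicate 2 and a triangle for replicate 4. Lamb2 falls to at most 1.24 CPM after the larger IPC-like cluster, on at most 4 UMIs per cluster and library. Lamb1 peaks in the unnamed cluster at 27.9 and 31.8 CPM, and Lama2 is highest in 2 neuronal clusters, where Col11a1 lies between 45.4 and 97.5 CPM.

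Chains were also compared between MGE interneuron-like and excitatory neuron-like cells. An MGE interneuron-like sub-cluster of 23 cells came from replicate 4 only, so the class was not the same mix in both libraries. Whether the MGE interneuron-like cells had already entered the cortex was not tested. Of the 41 genes, 1 was called higher, where 7.63% of all genes tested were, and 2 lower, where 12.3% were. The median of the fitted values was -1.52, but 0 with genes of 3 UMIs or fewer set to their bound, since 27 of the 41 genes had so few UMIs in the interneurons. The depth behind them was 1245446 and 1449998 UMIs, and which differences could be detected at this depth was not tested. A chain that was not called is therefore not read as equal in both classes.

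Col19a1 (ENSMUSG00000026141; chr1:24257683-24587922), a FACIT-related collagen, was the gene called higher, at 87.5 and 31.0 CPM against 1.06 and 1.3 CPM. It passed the filter on low counts only through the interneuron sums and could only come out higher, so that its levels are a description. Its 109 and 45 UMIs came from 10 of 54 and 2 of 107 cells, with 47 and 43 of them in 1 cell. All were in the sub-cluster led by Sst, Nxph1 and Nxph2, at 135 and 71.3 CPM, and none in the 2 other MGE interneuron-like sub-clusters. Without the cell highest in it the levels were 51.6 and 1.42 CPM. Lama2 had no UMI in the interneurons against 329, at least 7.32-fold lower with a floor of 3 UMIs over both libraries. That gene was no longer called with at most 5% mitochondrial UMIs, at Leiden resolution 0.5 or with classes made from 1 part of the UMIs and tests on the other (adjusted p by edgeR = 0.0639, 0.0740 and 0.256). Lamb1 had 3 UMIs against 578, a ratio of 12.9 (4.38 to 62.5). Lama1 was at 12.9 and 8.28 against 2.81 and 2.88 CPM and was not called (1.78 ± 0.60 SE, adjusted p by edgeR = 0.0640).

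Several chains came from few cells, so that their level rests on single cells. Col25a1, also known as the collagen-like amyloid component, was at 24.6 and 13.4 CPM in RGC-like cells, from 20 of 225 and 30 of 375 cells with up to 76 and 43 UMIs in 1 cell, and lay mainly in 1 of 3 RGC-like clusters (58.9 and 24.3 CPM). In replicate 4, 13 striatal projection neuron-like cells held 223 Col25a1 UMIs, all in a sub-cluster led by Ebf1 and Isl1 (415 CPM), and replicate 2 had 1 cell of that class. Of 59 Col8a2 UMIs in excitatory neuron-like cells of replicate 2, 58 came from 1 cell, as did 87 of 143 Col12a1 UMIs there and all 36 Col19a1 UMIs in RGC-like cells of replicate 4. Col12a1 was in 55 and 59 RGC-like cells with at most 9 UMIs each, at 17.0 and 12.9 CPM. In Cajal-Retzius-like cells Col11a1 was at 137.1 and 93.5 CPM from 10 of 16 and 13 of 24 cells, whereas Col23a1, at 54.8 and 60.9 CPM, came from 2 and 3 cells.

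The genes that make, cross-link and bind collagens and laminins were counted from lists, and the counts are a description beside those of all genes tested. Of 12 basement membrane partners tested, 8 were higher and 0 lower in RGC-like than in excitatory neuron-like cells at adjusted p under 0.05, where 25.1% and 29.3% of all genes tested were. Of 24 genes of collagen biosynthesis 10 were higher and 2 lower, and of 15 receptors 8 were higher and 0 lower. Among the genes counted as higher, P4ha3 and Itga2 passed the filter only through the RGC-like sums and could only come out higher. Sparc, a collagen-binding glycoprotein, was at 85.6 and 73.1 against 0.901 and 2.98 CPM (log2 fold change 5.07 ± 0.39 SE), Fbln2, a fibulin, had 5.13 and P3h2, which hydroxylates proline in collagen IV, 4.55. Serpinh1, the collagen chaperone HSP47, was at 99.4 and 91.1 against 11.1 and 12.9 CPM (2.74 ± 0.22 SE). The 2 lower genes were both procollagen N-proteinases. Adamts3, which also cleaves reelin, was at 47.9 and 50.3 against 236.4 and 252.6 CPM (-2.56 ± 0.32 SE, adjusted p by edgeR = 6.49e-05), and Adamts2 had -2.82. Of the receptors, Dag1, the laminin receptor dystroglycan, was higher (0.53 ± 0.16 SE), while Itgb1, the integrin beta chain shared by most matrix receptors (0.03), and Adgrg1, a receptor for collagen III (0.05), were not called. Nor was the nidogen Nid1 (1.52, adjusted p by edgeR = 0.0549).

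Against IPC-like cells, 5 of 12 basement membrane partners were higher in RGC-like cells and 1 lower, 8 of 24 biosynthesis genes higher and 1 lower, and 5 of 15 receptors higher and 2 lower, where 14.5% of all genes tested were higher and 13.0% lower. Adgrg1 was lower, at 55.9 and 54.9 against 100.3 and 95.3 CPM (-0.89 ± 0.21 SE, adjusted p by edgeR = 0.0109), as were Smoc1, a calcium-binding matrix protein (-1.22), and Ppib, a prolyl isomerase of collagen folding (-0.68). Higher were the nidogen Nid2 on 69 against 2 UMIs (15.3, 4.09 to 129), P3h2 (3.67), Sparc (2.72) and Serpinh1 (0.88). Itga2, a collagen receptor chain that passed the filter only through the RGC-like sums and could only come out higher, had 102 against 1 UMIs. Dag1 (0.27), Itgb1 (-0.00) and Nid1 (1.48) were not called.

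Between MGE interneuron-like and excitatory neuron-like cells, 0 of 24 biosynthesis genes were called higher and 7 lower, while 2 of 12 basement membrane partners were higher and 2 lower and 3 of 15 receptors were higher and 3 lower, where 7.63% of all genes tested were higher and 12.3% lower. Serpinh1 was at 0.803 and 2.07 against 11.1 and 12.9 CPM (-3.08 ± 0.49 SE, adjusted p by edgeR = 0.00144). Adamts2 (281 UMIs in excitatory neuron-like cells), Colgalt2, which adds galactose to collagen (195), and Hspg2, the perlecan gene (85), had no UMI in the interneurons and were at least 6.25, 4.34 and 1.89-fold lower. Smoc1 (3.83) and the integrin chains Itga11 (2.66) and Itga3 (2.55) were higher. Nid1 had 0 UMIs against 9, and Dag1 (0.34), Itgb1 (0.11), Adgrg1 (-0.38) and Sparc (-0.49) were not called.

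Meningeal fibroblast-like cells had 20 of 24 biosynthesis genes higher than RGC-like cells and 1 lower, 9 of 12 basement membrane partners higher and 1 lower, and 6 of 15 receptors higher and 4 lower, where 21.8% of all genes tested were higher and 18.2% lower. Of the 51 partner genes tested, 13 passed the filter only through the meningeal sums and could only come out higher, among them Nid1, Lox, Adamts14, Smoc2, Fbln5 and Bcam, so these counts are a description. Serpinh1 was at 906.1 and 1295 against 99.4 and 91.1 CPM (3.57 ± 0.23 SE) and Sparc at 1351 and 1623 against 85.6 and 73.1 CPM (4.27 ± 0.35 SE). Nid1 was at 258.9 and 254.7 against 0.408 and 1.11 CPM, the cross-linking enzyme gene Lox had 128 against 1 UMIs (ratio 1305, 230.1 to 51955), and the N-proteinase Adamts14 12 against 0, at least 40.8-fold higher. Lower were Adgrg1, at 0 and 5.56 against 55.9 and 54.9 CPM (-4.18 ± 0.46 SE), the laminin-related netrin Ntn4 (-4.38) and the integrin chain Itgb8 (-3.99). Itgb1 was higher (1.25) and Dag1 was not called (0.37). RGC-like cells entered 3 of the 4 comparisons, and excitatory neuron-like cells 2 of them.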

How the data were processed

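Single-cell 3′ RNA sequencing of 2 WT libraries (E14.5) was analysed. Per the labels and the study's methods, the authors processed the reads with Cell Ranger 7.0.0 on mm10. The authors deposited raw UMI counts, with no normalization. Intronic reads are counted by default in this version, and the setting used is not stated. No column of other samples was present.

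Barcodes needed 1000 genes or more and no more than 10% mitochondrial UMIs (1211 and 1971 passed), and Scrublet doublets (14 and 15, 1.16% and 0.761%) were removed with scanpy 1.11.5. Counts were scaled to 10000 per cell, and 2000 variable genes (no collagen or laminin gene), 30 principal components, 20 neighbours and Leiden resolution 1 gave 23 clusters. GABAergic clusters were split further into 8 sub-clusters (15 neighbours). A name needed 3 raised markers (10 CPM added, log2 ratio 1 or more over the median cluster, and detected in at least 25% of cells). CPM (counts per 1e+06 UMIs) were computed per library and class. Clusters that mixed markers, or held shallow cells without markers of their name, stayed unnamed (336 cells). A cluster of 52 shallow cells with hemoglobin genes among its leading genes was counted as excitatory neuron-like. Since the classes were rebuilt, they may not match the study's.

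Sums of the 6 classes with at least 10 cells per library (12 sums) entered 1 model in edgeR 4.0.16 (R 4.3.3): quasi-likelihood test, TMM, filterByExpr, Benjamini-Hochberg adjustment over 13966 genes. Standard errors (SE) are approximate, log2 fold change over the root of F. Poisson, ratio and Clopper-Pearson intervals (95%) cover counting error. Sums with the same number come from the same library. Their deviations from class means had a median correlation of 0.113 (0.0158 to 0.259, 15 class pairs), and the library as a block was an alternative. Tests were checked on simulated data in which only genes of higher level were changed, so the check does not cover genes of low level. Alternatives changed the mitochondrial limit, doublets, resolution, normalization, filter, test (DESeq2 1.42.0), classes in the model and the UMIs used for naming. Sequences are from RefSeq, GRCm38.p6. For partner genes, up to 3 called per direction with the largest fold changes and the same sign in both libraries were named, plus Adgrg1, Dag1, Itgb1, Nid1, Sparc and Serpinh1. The genes and lists were chosen with earlier results of these data known. The values of 1 of these genes are not reported here.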

Additional observations from a re-analysis of the deposited data

Results flagged for a closer look

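Barcodes left out by the filters still carried collagen and laminin UMIs. In replicate 2, the 501 barcodes left out held 1009 such UMIs, or 969.3 per 1e+06 UMIs of these barcodes, where a floor of 3 counts is 2.88. In replicate 4, the 618 barcodes left out held 1186, or 561.8 per 1e+06, where the floor is 1.42. They were looked at because they lie outside the comparisons above. Both values lie above the 457.8 and 443.8 CPM of RGC-like cells and under the values of the hem or choroid plexus-like, vascular and meningeal classes. The UMIs were spread over 130 and 210 barcodes, with up to 190 and 133 in 1 barcode. Col4a1 had 215 and 133 of them, Col3a1 72 and 81, Lamc1 58 and 63, and Col1a1 17 and 59. These barcodes were not assigned to cell classes, and no cause was tested.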

How the results depend on the processing

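Of 782 refits of single collagen and laminin genes that were called in the main fit, 759 kept direction and side of the threshold, 21 lost the call and 2 reversed. Genes that gained a call are not in this count. The reversals were Lama4 in RGC-like against excitatory neuron-like cells with doublets kept (-1.22) and Col19a1 in meningeal fibroblast-like against RGC-like cells at 5% mitochondrial UMIs (-2.30). With 1 library left out there is no test, and 45 of 148 log2 fold changes moved by less than 1 SD, 102 by more, and 1 reversed, Col19a1 in the same comparison without replicate 2 (-1.13, against 5.25 without replicate 4). Counts called higher moved by over 1.5 times only for MGE interneuron-like over excitatory neuron-like cells, from 1 to 2 (Leiden resolution 2, and only the compared classes in the model) and 3 (DESeq2, and no filter). Over all genes in that comparison, in either direction, 2780 of 13966 were called in the main fit. In these settings 2765 of 12810, 3015 of 13965, 3133 of 13966 and 3574 of 24637 were. Counts called lower moved as follows. RGC-like against excitatory neuron-like cells had 3, and 1 at 5% mitochondrial UMIs, 5 with doublets kept, 1 with classes from 1 part of the UMIs and tests on the other, and 7 without the filter. Over all genes, in either direction, 7599 of 13966 were called there in the main fit. In these settings 6797 of 12723, 7158 of 12838, 7572 of 13593 and 8602 of 24637 were. RGC-like against IPC-like cells had 3, and 1 at 5% mitochondrial UMIs, where 4233 of 12723 genes were called over all, against 3829 of 13966. MGE interneuron-like over excitatory neuron-like cells had 2, and 1 at 5% mitochondrial UMIs, 4 with doublets kept, 1 at Leiden resolution 0.5 and 1 with the split UMIs. Over all genes 2386 of 12723, 2556 of 12838, 2497 of 13195 and 2312 of 13593 were called in these settings. Meningeal fibroblast-like against RGC-like cells had 2, and 1 at Leiden resolution 2 and with the split UMIs. Over all genes 5507 of 12810 and 4817 of 13593 were called there, against 5586 of 13966 in the main fit. A gene that did not pass the filter on low counts in a setting also left these counts. Of the 19 genes called in RGC-like against excitatory neuron-like cells, 17 were tested at 5% mitochondrial UMIs, and all 17 kept the call. With the split UMIs 17 were tested and 16 kept the call, and the gene that lost it was Lama4, called higher in the main fit. The causes of the other changes were not tested. DESeq2 size factors moved the median of all genes in RGC-like against excitatory neuron-like cells from -0.07 to 0.05 and kept all 19 collagen and laminin calls. Col22a1 in meningeal fibroblast-like against RGC-like cells lost its call in 4 settings and Col25a1 lost all 3 of its calls with DESeq2 (adjusted p = 0.0983, 0.0747 and 0.286).

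The library as a replicate block, which pairs sums of the same library, kept every collagen and laminin call (19, 14, 3 and 38 genes) and called 7897, 4157, 2945 and 5706 genes over all, against 7599, 3829, 2780 and 5586 without it. In the interneurons 27 of the 41 genes tested had at most 3 UMIs, and the mural-like and endothelial-like values rest on 12 and 27 cells.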

Other observations

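Levels in 2 of the unnamed clusters are set beside those of the RGC-like class. A cluster of 140 cells with all 10 RGC markers raised, and with Ttr and Rspo3 among its leading genes, had Col4a5 at 98.9 and 81.3 CPM and Col5a2 at 34.0 and 34.4 CPM in replicates 2 and 4, both above the values of the RGC-like class (67.1 and 56.9 CPM, and 18.4 and 17.5 CPM). Its Lama1 level, 19.3 and 30.7 CPM, was below theirs (39.7 and 39.7 CPM), and Lamb1, at 7.06 and 3.25 CPM, was above (1.09 and 1.21 CPM). A cluster of 66 shallow cells with RGC markers had Lama1 at 64.2 and 108 CPM and Col2a1 at 83.0 and 68.3 CPM. The larger MGE interneuron-like sub-clusters differed in Col11a1, at 13.7 and 22.2 CPM in the one led by Sst, Nxph1 and Nxph2 (68 cells) and 36.4 and 49.7 CPM in the one led by Nxph1 and Dpp10 (70 cells). Clusters come from the same cells, and none of these differences was tested.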
